A study of Homo sapiens with 4 samples.

Results

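The deoxynucleotide supply enzymes are 8 human genes, RRM1, RRM2, TYMS, TK1, DUT, DCK, DTYMK and SAMHD1, taken by symbol from a table of 60725 genes by a rule that does not use their measured values, although the set was drawn up with earlier results of these data known. Their RNA levels were compared between RPE1 SunTag cells treated with a control siRNA and the same line depleted of TOP2B, the beta form of DNA topoisomerase 2. RPE1 is a line of retinal pigment epithelial cells immortalized with telomerase (hTERT-RPE1), and both groups carry the SunTag system, a reporter scaffold that is not a subject of the comparison. The control group (2 libraries) was given Silencer Select Negative Control No. 2, as the labels name it, and the TOP2B knockdown group (2 libraries) was given the Dharmacon on target plus smart pool, each at 10 nM in transfections 48 h apart. RNA was collected 72 h after the later transfection, on day 5, and the replicates are described as independent biological replicates. Each group therefore has its own siRNA, so an effect of either siRNA and an effect of losing TOP2B cannot be told apart. All samples come from a single line and are bulk cultures, in which fewer cells of a kind and less RNA per cell cannot be told apart either.

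DNA synthesis needs the 4 deoxynucleoside triphosphates in balanced amounts. Ribonucleotide reductase makes deoxynucleotides from ribonucleotides, thymidylate synthase and its folate cofactors make the thymidine form, and salvage kinases recover nucleosides. DUT removes dUTP and SAMHD1 degrades the finished triphosphates. Several of these enzymes are known to be made mostly by cells that enter or pass through S phase.

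Gene counts summed to between 20310259 and 23887013 per library, and 15356 genes had at least 10 counts in 2 or more libraries and were tested with edgeR's quasi-likelihood test. A gene was called at a Benjamini-Hochberg adjusted p below 0.05 over all of these genes. The level unit below is CPM, the read count scaled to library size with TMM factors, of which 1 unit is 20.2 to 23.9 reads. TOP2B, the knockdown target, stood at 154.9 and 143.5 CPM in the control libraries and at 15.3 and 13.3 CPM in the knockdown libraries. Markers of differentiated pigment epithelium were largely absent. RPE65, TYR and TTR had 0 counts in every library, RLBP1, LRAT and TYRP1 at most 7, while the transcription factor genes MITF (870 to 921 counts) and OTX2 (252 to 285 counts) were present and BEST1 (14 to 20 counts) and PMEL (7 to 31 counts) were near the lower limit. Of 8 markers of other cell types, PECAM1 (5 to 24 counts) was the only one with enough counts to be tested, CD3E, NEUROD1 and EPCAM had 0, and PTPRC, ALB and CDH1 had at most 7.

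The sequences just upstream of the start sites of the 4 genes that passed the test, and of SAMHD1, are shown to compare the words they hold. They come from RefSeq promoter windows of GRCh38.p14 (250 bases before and 50 after a start), which held all 8 members in 13 windows. Capitals mark the E2F words TTTCCCGC, TTTGGCGC, TTTCGCGC or TTTGCCGC in TYMS and DUT and the word CCAAT in the other genes, on either strand, so that GCGGGAAA and ATTGG are the reverse forms. E2F factors drive genes of S phase and CCAAT is bound by the factor NF-Y. The words of the 2 kinds do not overlap in these stretches, which lie at chr2:10122596-10122697 (RRM2, plus strand), chr17:78187074-78187149 (TK1, minus strand), chr18:657594-657641 (TYMS, plus strand), chr15:48332135-48332196 (DUT, plus strand) and chr20:36951722-36951777 (SAMHD1, minus strand), and each is printed 5′ to 3′ along its gene.
RRM2: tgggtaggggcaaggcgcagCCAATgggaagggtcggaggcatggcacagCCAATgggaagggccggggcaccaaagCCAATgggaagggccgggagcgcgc
TK1: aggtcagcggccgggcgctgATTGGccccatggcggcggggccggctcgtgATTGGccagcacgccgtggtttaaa
TYMS: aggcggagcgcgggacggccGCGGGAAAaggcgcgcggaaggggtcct
DUT: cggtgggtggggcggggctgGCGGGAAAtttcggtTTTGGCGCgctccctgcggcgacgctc
SAMHD1: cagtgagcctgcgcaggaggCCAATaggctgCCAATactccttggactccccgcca

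RRM2 held 3 copies of CCAAT in this window, a number that 3.26% of 35116 RefSeq promoter windows reach. TK1 and SAMHD1 held 2 each, as did DTYMK, against 10.8% of windows with 2 or more. RRM2 and TK1 each have 2 windows, of which the one with more words is shown, and the other held 1 CCAAT for RRM2 and 0 for TK1, while the shares over all promoters are per window. The E2F words were found once in TYMS (from position -39 of the start), once in DCK (from position 22, after the start) and 2 times in DUT, against 3.31% of all windows with at least 1 and 0.145% with at least 2. The DUT window belongs to 1 of 4 RefSeq starts of this gene, the other 3 windows holding 0 of the words searched, and not to the start of its canonical GENCODE transcript. RRM1 held 1 CCAAT and 1 copy of TTTGAA, the CHR word of late cell cycle promoters, which 15.2% of windows hold, and DUT held 2 copies of TTTGAA. SAMHD1 and TK1 held the same number of CCAAT words in the windows shown, and the TYMS window held none. Whether any of these words bears on the change of a member was not tested. The gene counts do not tell which start was used. In the 3′ UTRs of the canonical transcripts, GCAACC was absent from all 8 members. This word, to which no regulator is assigned here, was present in 23.6% of 12383 tested genes with a 3′ UTR. The median log2(fold change) was 0.06 for genes with it and -0.04 for genes without it, and the difference was not tested.

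All 8 members passed the filter on counts, and 7 of them had a fitted change above 0 in TOP2B knockdown cells, as did 49.8% of all genes tested. TK1, TYMS, DUT and RRM2 rose, by 1.43-fold to 1.66-fold, RRM1, DCK and DTYMK did not pass the test, and SAMHD1, the enzyme that breaks deoxynucleotides down, had the only fitted change below 0. Thus 4 of 8 members were called higher, where 6.66% of all genes tested were, and 0 were called lower, where 4.18% were. In all, 10.8% of the tested genes were called. At an unadjusted p below 0.05 in edgeR, 6 members were higher and 0 lower. The share of all genes at this threshold was not counted. Counts at it, here and for the lists below, therefore have no background to be set against. The Wald test of DESeq2 called 4 members higher and 0 lower, and over all genes 917 higher and 645 lower. The median log2(fold change) of the members was 0.51, against -0.0029 over all genes tested, and between 0.36 and 0.64 when each knockdown library was set against each control library. For 6 members both knockdown libraries lay above both control libraries, which was so for 27.7% of all genes tested. Both the number of members that passed and which members these were changed when single libraries were left out.

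**Figure D1:**
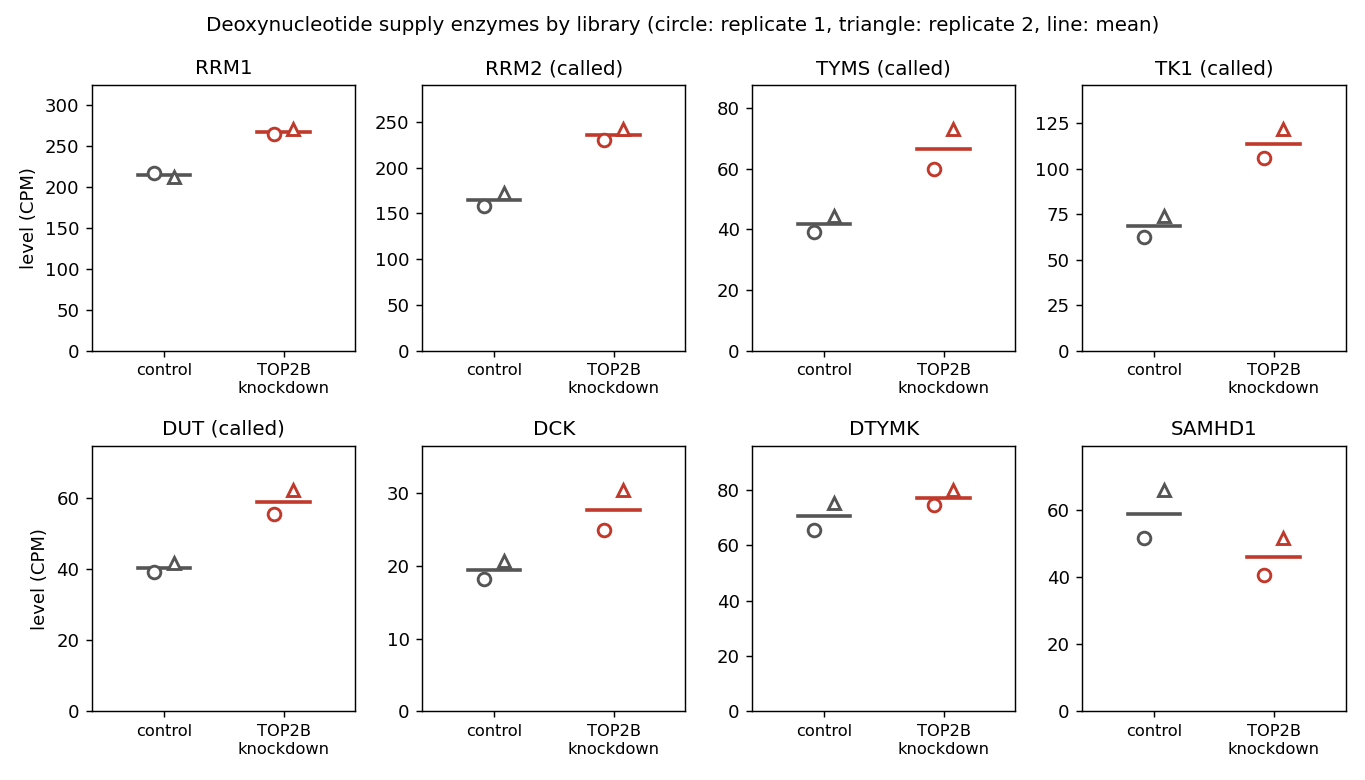
Level of each of the 8 enzymes in CPM (y axes from 0, each with its own range) in the 2 control and 2 TOP2B knockdown libraries. Symbols are libraries and lines group means, and the knockdown libraries lie above the control libraries in 6 of the 8 panels, with DTYMK and SAMHD1 overlapping.

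Ribonucleotide reductase is built from a large subunit, RRM1, which holds the active site, and a small subunit, RRM2, which supplies the radical and whose protein is known to be removed after S phase. RRM2 (ENSG00000171848, canonical transcript on chromosome 2 from 10122739 to 10131414, plus strand, 10 exons) had 158.0 and 172.0 CPM in the control libraries and 229.8 and 242.1 CPM in the TOP2B knockdown libraries. The knockdown libraries were both higher and the groups did not overlap. The means were 165.0 ± 9.87 and 236.0 ± 8.74 CPM (SD, n = 2), and RRM2 rose by a log2(fold change) of 0.52 (standard error 0.13, edgeR's quasi-likelihood p adj = 0.0295). The size of this change held when any library was left out, between 0.45 and 0.59, but its adjusted p then lay between 0.0846 and 0.19, so the call needs all 4 libraries.

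RRM1 (ENSG00000167325, chromosome 11 from 4094799 to 4138932, plus strand, 19 exons) had the closest replicates of the 8 genes relative to its level. Its levels were 216.8 and 212.9 CPM in control and 264.5 and 270.7 CPM in knockdown cells, without overlap. The log2(fold change) was 0.32 with a 95% interval from 0.04 to 0.60, and it did not pass the test over all genes (p adj = 0.139, same test). Per kilobase of transcript, RRM2 stood at 0.703 and 0.779 of RRM1 in the control libraries and at 0.838 and 0.863 in the knockdown libraries. These ratios do not depend on how libraries are scaled and did not overlap. The ratio was 1.15-fold higher in knockdown cells, with an exact two-sided permutation p of 0.333, which is the smallest p that 2 libraries against 2 can give.

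RRM2B encodes the other small subunit, which is known as a p53 target and serves DNA repair and resting cells. It was at 77.2 and 96.9 CPM in control and at 58.3 and 74.8 CPM in knockdown cells, with a log2(fold change) of -0.39 (edgeR's quasi-likelihood p adj = 0.148). All knockdown libraries were below the control libraries, although RRM2B did not pass the test. RRM2B passed with the replicate number as a block (p adj = 3.13e-05), but not by the Wald test of DESeq2 (p adj = 0.142). The size of its change depended on which libraries were kept. Dropping control replicate 1 gave -0.55, and dropping TOP2B knockdown replicate 2 gave -0.57. Dropping control replicate 2 gave only -0.209, and dropping TOP2B knockdown replicate 1 only -0.215. In RPKM, the level per kilobase of canonical transcript, the ratio of RRM2 to RRM2B was 3.0 and 2.6 in control and 5.78 and 4.74 in knockdown cells. The pair of small subunits thus stood 1.88-fold further apart in the knockdown libraries, a value given without a test.

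TK1 is the cytosolic kinase that salvages thymidine, and it had the largest fitted change of the 8 genes. TK1 (ENSG00000167900, chromosome 17 from 78174091 to 78187052, minus strand, 7 exons) was at 62.7 and 74.2 CPM in the control libraries and at 105.7 and 121.7 CPM in the knockdown libraries, well apart. It rose by a log2(fold change) of 0.73 (standard error 0.13, edgeR's quasi-likelihood p adj = 0.00873). It was the only member called in every fit with a library left out, with values between 0.61 and 0.86. TK2, the mitochondrial thymidine kinase, was at 41.8 and 44.6 CPM in control and at 36.7 and 44.4 CPM in knockdown cells. These groups overlapped, and the log2(fold change) was -0.09 (95% interval from -0.39 to 0.20). The ratio of TK1 to TK2 in RPKM was 5.05 and 5.61 in control and 9.71 and 9.23 in knockdown cells, 1.78-fold higher.

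TYMS, thymidylate synthase, makes dTMP from dUMP. TYMS (ENSG00000176890, chromosome 18 from 657653 to 673578, plus strand, 7 exons) was at 39.2 and 44.2 CPM in control and at 59.9 and 72.95 CPM in knockdown cells, with no overlap. It rose by a log2(fold change) of 0.67 (standard error 0.14, edgeR's quasi-likelihood p adj = 0.0138), and by 0.53 (p adj = 0.0523) without TOP2B knockdown replicate 2. Other annotated genes on the opposite strand cover 66.5% of the bases of its transcript, 60.0% by ENOSF1 and 6.57% by TYMSOS. The column names of the table carry a stranded tag, the methods give an unstranded setting for the signal tracks of the alignment, and no setting is stated for the gene counts, so reads of these genes may not have been told apart and TYMS is uncertain to that extent. ENOSF1 itself had 9.73 and 8.12 CPM in control and 14.6 and 11.9 CPM in knockdown cells (log2(fold change) 0.57, p adj = 0.0675, same test), and TYMSOS at most 11 counts.

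DUT hydrolyses dUTP, which keeps uracil out of DNA and yields the dUMP that TYMS uses. DUT (ENSG00000128951, chromosome 15 from 48331429 to 48343373, plus strand, 7 exons) was at 39.2 and 41.5 CPM in control and at 55.35 and 62.1 CPM in knockdown cells. The groups were separate, and DUT rose by a log2(fold change) of 0.54 (standard error 0.12, edgeR's quasi-likelihood p adj = 0.0212). Without control replicate 1 the value was 0.50 (p adj = 0.0819) and without TOP2B knockdown replicate 2 it was 0.46 (p adj = 0.112). DUT-AS1 on the opposite strand covers 17.1% of the transcript and had 9 to 25 counts. DUT also has processed pseudogenes, as do RRM2 and TYMS. The table holds 13 of them, 9 with 0 counts in all libraries and none above 7 counts in any, so few reads were assigned to these copies.

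DCK phosphorylates deoxycytidine and, with less preference, the purine deoxynucleosides. DCK (ENSG00000156136, chromosome 4 from 70993649 to 71030914, plus strand, 7 exons) had the fewest reads, 436 to 613 counts, with 18.2 and 20.7 CPM in control and 25.0 and 30.4 CPM in knockdown cells. The groups did not overlap, and the log2(fold change) of 0.51 was close to that of RRM2, but its standard error was 0.15 and it did not pass the test (edgeR's quasi-likelihood p adj = 0.0551). The fitted change of DCK, and its side of the threshold, moved with single libraries. The fitted change reached 0.61 once control replicate 2 was removed and 0.65 once TOP2B knockdown replicate 1 was removed. It shrank to 0.42 with control replicate 1 removed and to 0.37 with TOP2B knockdown replicate 2 removed. The Wald test of DESeq2 did not call DCK (p adj = 0.0822). Exons of the neighbouring gene MOB1B cover 7.94% of its transcript.

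DTYMK turns dTMP into dTDP, the step after both TYMS and TK1. DTYMK (ENSG00000168393, chromosome 2 from 241675747 to 241686815, minus strand, 5 exons) was at 65.4 and 75.4 CPM in control and at 74.5 and 79.9 CPM in knockdown cells, so that the groups overlapped. The log2(fold change) was 0.13 with a 95% interval from -0.14 to 0.41 (edgeR's quasi-likelihood p adj = 0.544), which leaves room for a rise of up to 1.33-fold. It had the smallest fitted change of the 8 genes.

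SAMHD1 cleaves deoxynucleoside triphosphates to nucleosides and is known to be phosphorylated by cyclin-dependent kinases in cycling cells. SAMHD1 (ENSG00000101347, chromosome 20 from 36890229 to 36951708, minus strand, 16 exons) was at 51.6 and 66.0 CPM in control and at 40.5 and 51.7 CPM in knockdown cells. The higher knockdown library reached just above the lower control library. The log2(fold change) was -0.35 with a 95% interval from -0.71 to 0.01 (edgeR's quasi-likelihood p adj = 0.2). It varied with single libraries, to -0.52 without control replicate 1, -0.16 without control replicate 2, -0.53 when TOP2B knockdown replicate 2 was left out and -0.18 when TOP2B knockdown replicate 1 was.

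Set against the other 7 members within each library, SAMHD1 stood lower in knockdown cells. This contrast also holds the fitted rises of the other 7, while SAMHD1 alone changed by -0.35 with overlapping groups. The log2 RPKM of SAMHD1 minus the mean log2 RPKM of the 7 others was -1.5 and -1.28 in the control libraries and -2.32 and -2.13 in the knockdown libraries. The groups did not overlap, and the difference of -0.84 stayed between -0.94 and -0.73 when any library was left out. The exact two-sided permutation p was 0.333, again the smallest that this design allows.

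**Figure D2:**
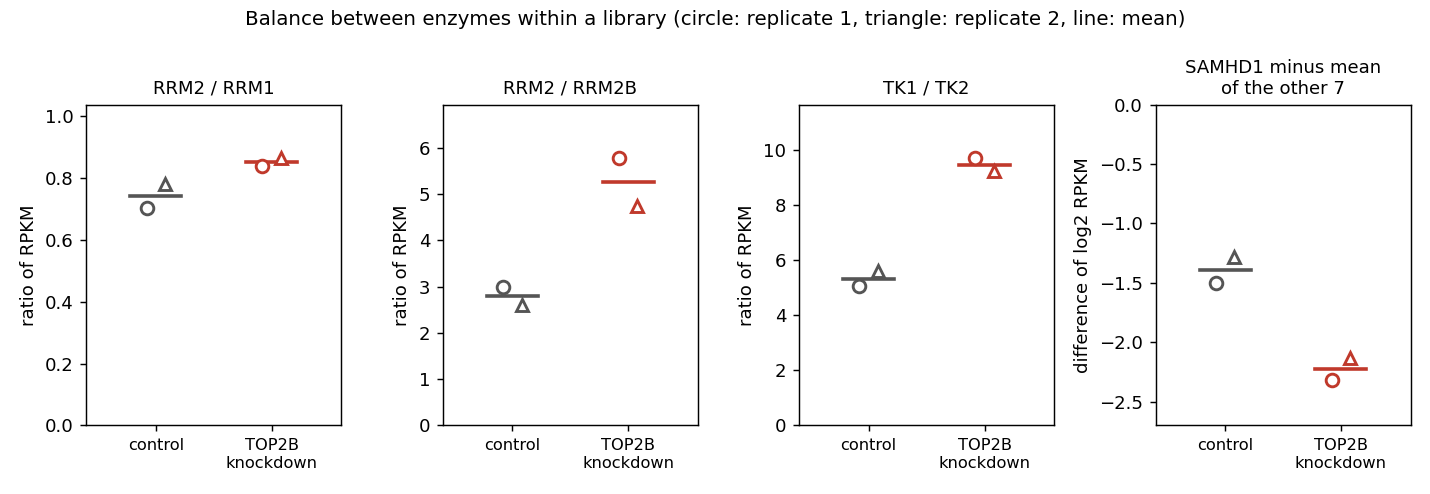
Balance between enzymes within each library, as ratios of RPKM for RRM2 to RRM1, RRM2 to RRM2B and TK1 to TK2 (y axes from 0) and as the log2 RPKM of SAMHD1 minus the mean of the other 7 members. Symbols are libraries and lines group means. The RRM2 to RRM2B ratio is 2.6 to 3.0 in control and 4.74 to 5.78 in knockdown cells, and no panel shows an overlap.

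In RPKM the order of the members in control cells was RRM1 (68.4 ± 0.89), DTYMK (67.0 ± 6.74), RRM2 (50.65 ± 3.03), TK1 (47.8 ± 5.66), TYMS (25.85 ± 2.21), DUT (18.9 ± 0.77), SAMHD1 (12.6 ± 2.19) and DCK (7.76 ± 0.71; SD, n = 2). RRM1 and DTYMK overlapped, as did RRM2 and TK1, while the other neighbours were separate. In knockdown cells TK1 (79.45 ± 7.91) came after RRM1 (85.2 ± 1.39), and RRM1, TK1, DTYMK and RRM2 formed a run of neighbours that overlapped between 70.5 and 86.1 RPKM. At the low end, DCK (11.05 ± 1.535) and SAMHD1 (9.92 ± 1.70) overlapped. These levels use the length of the canonical transcript, and for TYMS the shared bases make the level uncertain.

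By the distance between centred log2 CPM profiles over the 4 libraries, over the 9487 genes that averaged 10 CPM or more, the genes nearest to RRM2 were VAMP4, TOMM40L and SPC25, with distances from 0.0161 to 0.0225. Those nearest to TK1 were GINS4, CHCHD3 and LRRCC1 (0.0297 to 0.0449), to TYMS PRDX1, ARPC5 and BCL10 (0.0484 to 0.0609) and to DUT CAV1, CENPU and SF3A2 (0.0266 to 0.033). The profile of RRM1 was nearest to MTRFR, ZNF207 and SP1, that of DCK to TRAP1, SINHCAF and MVB12A, and that of DTYMK to F3, NICN1 and RAPGEF1. SAMHD1 was nearest to SNX12, PNKD and TXN2. With 4 libraries many genes lie this close, and the distances are a description.

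The steps around the members were followed in 7 further lists of nucleotide metabolism, 89 genes in all and 86 of them tested. Of these, 12 were called higher (14.0%, against 6.66% of all tested genes), 1 lower (against 4.18%) and 73 were not called. The thymidylate and folate cycle, which supplies the one-carbon unit for TYMS, held the most calls, with 4 of 12 tested genes higher, 0 lower and a median log2(fold change) of 0.36 (7 higher and 0 lower at an unadjusted p below 0.05, and 4 and 0 by DESeq2). SHMT2, the mitochondrial serine hydroxymethyltransferase, went from 88.0 and 99.7 CPM to 220.2 and 251.5 CPM, a log2(fold change) of 1.33 (edgeR's quasi-likelihood p adj = 0.000687). MTHFD2 and SHMT1 rose by 0.81 and 0.54, and MTHFD1, the cytosolic partner of these steps, had a value of -0.01 (p adj = 0.986, same test).

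**Figure D3:**
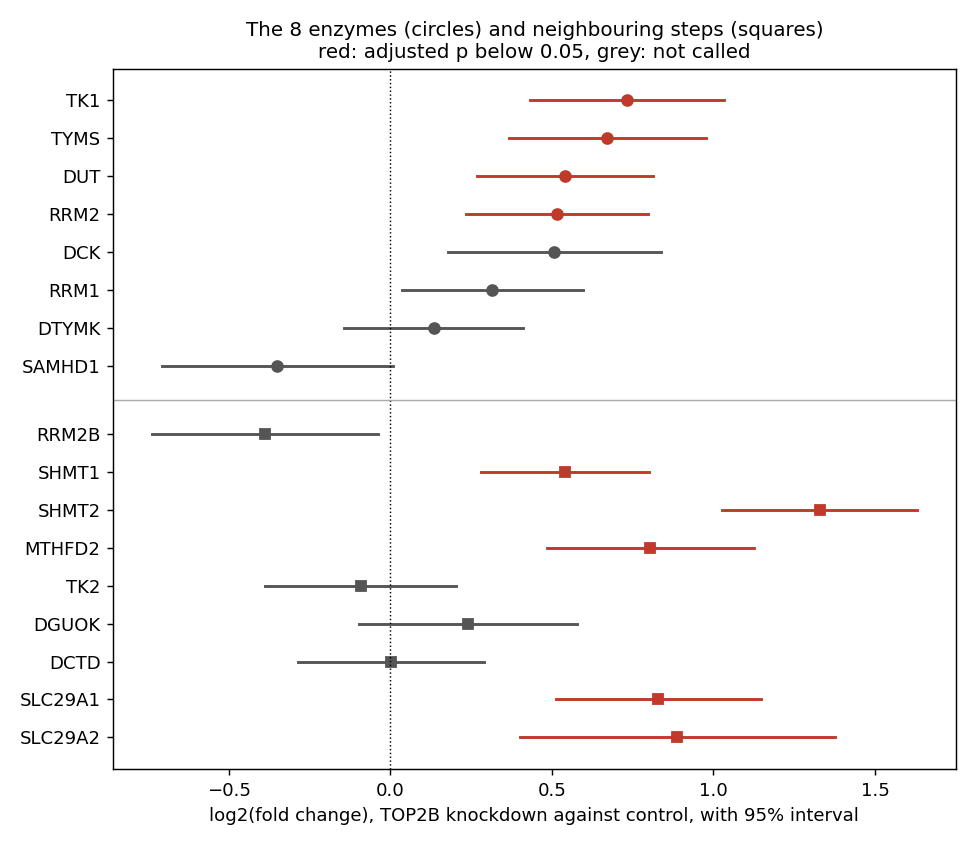
Log2(fold change) of TOP2B knockdown against control with its 95% interval from the edgeR fit, for the 8 enzymes (circles) and 9 genes of neighbouring steps (squares). TK1, TYMS, DUT and RRM2 are called higher between 0.52 and 0.73, SHMT2 lies furthest right at 1.33, and SAMHD1 and RRM2B lie left of 0 without a call.

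The nucleoside transporters SLC29A1 and SLC29A2, which pass nucleosides across the membrane in both directions, rose by 0.83 (edgeR's quasi-likelihood p adj = 0.0065) and 0.89 (p adj = 0.0297, same test), the first from 119.1 and 96.9 CPM to 203.8 and 180.2 CPM. In the salvage list, 3 of 17 genes were called higher and 0 lower (5 and 0 at an unadjusted p below 0.05, 2 and 0 by DESeq2). Besides SLC29A2 these were UCK1, a uridine and cytidine kinase, with 0.63, and ADA, adenosine deaminase, with 0.93 from 2.76 and 3.90 CPM to 5.19 and 7.54 CPM. DCTD, which makes dUMP from dCMP, had a log2(fold change) of 0.001 (95% interval from -0.29 to 0.29), and DGUOK, the mitochondrial deoxyguanosine kinase, had 0.24 (p adj = 0.353, same test). AHCYL1, whose protein binds ribonucleotide reductase, rose by 0.50 (p adj = 0.0335, same test), and with SLC29A1, placed in the same list, it made up the 2 calls among 10 reductase partners.

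In the de novo pathways 1 of 5 pyrimidine genes and 2 of 15 purine genes were called higher, and 0 lower. All 5 pyrimidine genes had a fitted change above 0, with a median of 0.35 (3 higher and 0 lower at an unadjusted p below 0.05, 1 and 0 by DESeq2), and the purine genes had a median of 0.05 (4 and 1, and 2 and 0 by DESeq2). CAD, the enzyme that opens pyrimidine synthesis, rose by 0.75 from 99.0 and 96.6 CPM to 178.3 and 151.1 CPM. PRPS2, which makes phosphoribosyl pyrophosphate, and PFAS, a middle step of the pathway, rose by 0.77 and 0.68. The nucleotide kinases, which act on ribonucleotides as well, had 0 of 13 genes called and a median of -0.21, with 2 higher and 3 lower at an unadjusted p below 0.05 in edgeR and 0 by DESeq2. Among 14 nucleotidases and pool cleaning enzymes the only call was the fall of NUDT18, by 0.78 (edgeR's quasi-likelihood p adj = 0.0405), from 8.64 and 11.5 CPM to 5.14 and 6.60 CPM.

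Genes of DNA replication moved with the members. Of 30 S phase replication genes such as the MCM helicase subunits, PCNA and the polymerase subunits, 21 were called higher and 0 lower, with a median log2(fold change) of 0.63 (27 and 0 at an unadjusted p below 0.05, 21 and 0 by DESeq2). Their summed level was 2010 and 2141 CPM in control and 3058 and 3174 CPM in knockdown cells. POLD1, the catalytic subunit of polymerase delta, rose by 1.36 and LIG1, the replicative DNA ligase, by 1.19. Of 25 genes of G2 and mitosis, 4 were called higher and 0 lower with a median of 0.22 (8 and 0 at an unadjusted p below 0.05, 5 and 0 by DESeq2), and their sum was 4603 and 3990 CPM in control and 5490 and 4801 CPM in knockdown cells. The shares called higher were 70.0% of the replication genes and 16.0% of the G2 and mitosis genes. Of all genes tested, 6.66% were called higher and 4.18% lower. The lowest count of any gene in the lists of replication and mitosis was 248.

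The mean log2 CPM of the 7 supply members (without SAMHD1) minus that of the 30 replication genes was 0.40 and 0.43 in control and 0.24 and 0.35 in knockdown cells, a difference of -0.12 given without a test. Both lists were chosen with earlier results of these data known. Which part the share of cells in S phase has in the members' change was not tested. The study stained DNA of control and TOP2B depleted cells to follow the cell cycle, and reported no change in its progression. Those measurements were not used here.

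Among 20 genes known to regulate the member proteins or their genes, 6 were called higher (30.0%, against 6.66% of all genes tested) and 0 lower (against 4.18%). At an unadjusted p below 0.05 in edgeR, 12 were higher and 1 lower, and DESeq2 called 4 higher and 1 lower. E2F2 and E2F1, which activate S phase genes, rose by 1.89 and 0.74, E2F3 by 0.43 and CCNE2, a G1/S cyclin, by 1.11. The kinases CDK2 and CDK1, which phosphorylate SAMHD1 with cyclin A, rose by 0.60 and 0.41. E2F3 (edgeR's quasi-likelihood p adj = 0.0496) and CDK1 (p adj = 0.0497, same test) lay just under the threshold. CCNF, whose protein directs RRM2 to degradation, had 0.49 (edgeR's quasi-likelihood p adj = 0.0722) and CDKN1A, the p21 inhibitor of these kinases, -0.63 (p adj = 0.0863, same test), from 464.5 and 664.3 CPM to 303.5 and 425.0 CPM. Protein levels, on which several of these regulators act, were not measured here.

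**Figure D4:**
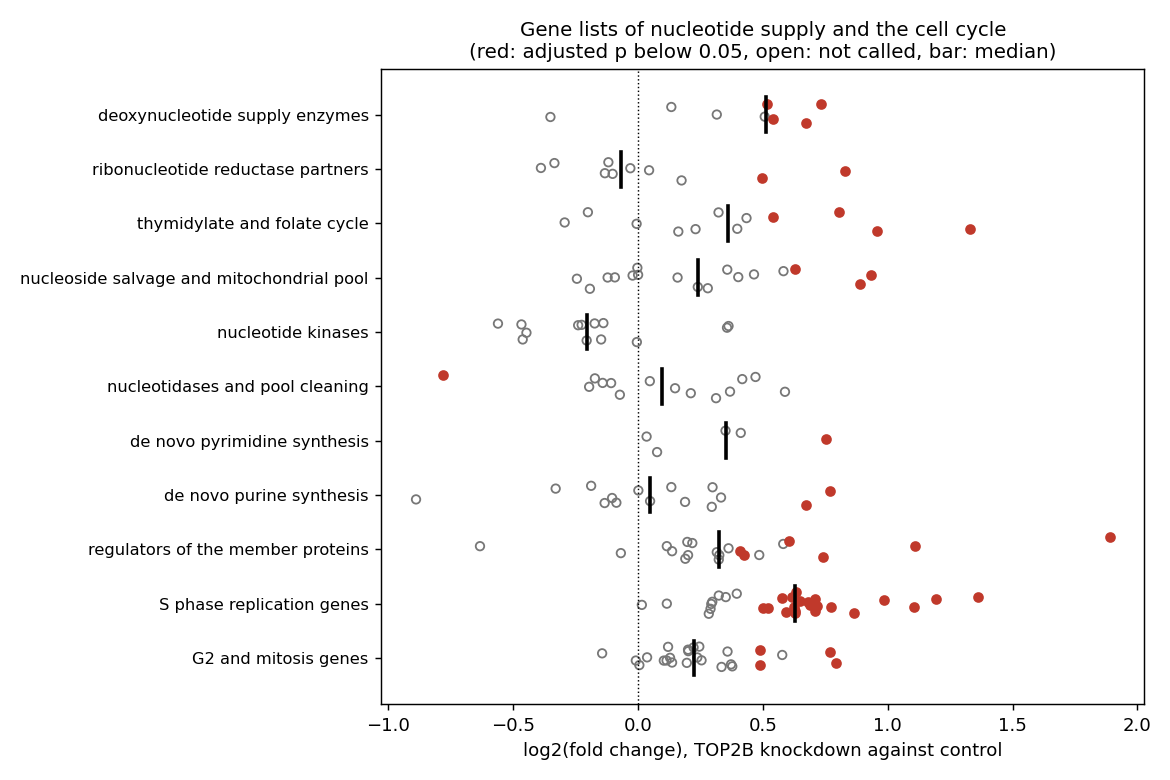
Log2(fold change) of every tested gene of 11 lists (points, red where called, black bars at the median), TOP2B knockdown against control. The medians are 0.51 for the deoxynucleotide supply enzymes, 0.63 for the S phase replication genes, 0.36 for the folate cycle and -0.21 for the nucleotide kinases.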

How the data were processed

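Per the labels and the study's methods, RNA from RPE1 SunTag cells went into TruSeq RNA LT libraries, and single-end reads of 65 bp were collected. The authors checked reads with FastQC 0.11.6 and aligned them to GRCh38 with STAR 2.5.4a, which counted reads per Gencode v24 gene. The deposited values are raw counts, not normalized. Each sample column occurs again in the table with the same content, and these 4 repeats were not used. Column names carry a stranded paired-end tag, the methods give single-end reads and an unstranded setting for signal output, and the strand setting of the gene counts is not given in the sources used here.

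Symbols, positions and lengths came from GENCODE v44 (GRCh38), and 93.1% of gene rows had a symbol. Fits used edgeR 4.0.16 in R 4.3.3 (TMM, glmQLFit and glmQLFTest, condition only), on genes with 10 counts in 2 libraries, with Benjamini-Hochberg adjustment. DESeq2 1.42.0 served as an alternative. RPKM divides CPM by canonical transcript length. Intervals are 95% intervals of the fit and cover the spread of these libraries only. Scripts were tested on simulated data. Alternatives were other scalings, other count filters, DESeq2, the replicate number as a block, and leaving out each library, where the lone sample of a group is assumed to vary like the others.

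The members and lists, written from general knowledge, were chosen with earlier results of these data known. Genes named are the members, TOP2B, RRM2B, DCTD, TK2 and DGUOK, called genes of the nucleotide lists (5 at most per list), the 3 nearest profiles per member, overlapping genes and pseudogenes; some genes of the lists are not reported here. The single replication genes and regulators named, MTHFD1 and the promoter stretches were picked after their values were seen.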

Additional observations from a re-analysis of the deposited data

How the results depend on the processing

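Every member kept the sign of its change in all 10 alternatives. TK1 and DTYMK also kept their side of the threshold in each, and the median of the members stayed between 0.42 and 0.59 without any one library. The number of members called higher ranged from 1 to 4 without one library (2 when control replicate 1 and 1 when TOP2B knockdown replicate 2 was left out), and called lower it was 0 in each. Without one library, all genes called ranged from 708 to 1003 higher and from 452 to 535 lower, the other nucleotide lists from 8 to 12 higher and from 0 to 4 lower, the log2 change of the RRM2 to RRM1 ratio from 0.13 to 0.28 and that of SAMHD1 against the other members from -0.94 to -0.73. Without a filter on counts DCK passed (p adj = 0.0222), 985 genes were lower in place of 642, and 3 genes of the nucleotide lists were lower in place of 1, while a mean of at least 100 counts left 0. The cause was not tested.

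The replicate numbers are shared by label only, with no stated common day or batch. Deviations of same-numbered libraries correlated across 15356 genes (Pearson's r = 0.479), but with 2 pairs this does not establish a pairing. With the replicate block, 3440 genes were higher and 3346 lower in place of 1023 and 642, the nucleotide lists gave 37 higher and 18 lower, and 6 members were higher and 1 lower. RRM1 (p adj = 4.88e-05), DCK (0.000117), SAMHD1 (0.000201) and RRM2B (3.13e-05) then passed. At this depth every member had at least 436 counts per library, so the 2 libraries per group limit the precision more than the reads do.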
